A study of Mus musculus with 8 samples.

Results

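The 9 genes described here encode the steroid-making machinery of Leydig cells and the peptide hormone of the same cells: *Lhcgr*, *Nr5a1*, *Star*, *Cyp11a1*, *Hsd3b1*, *Hsd3b6*, *Cyp17a1*, *Hsd17b3* and *Insl3*. They were chosen by name, with earlier results of these data known. They were found through the Entrez identifiers of the expression tables, and all 9 were among the 21058 genes listed. Their transcripts were measured by RNA-seq in pachytene spermatocytes that had been purified by Sta-Put, a sedimentation of testis cells at unit gravity. The 8 libraries, 4 of each genotype, came from mice of a CD1 background. *Arid1a* cKO males were Arid1a fl/fl with a Stra8-Cre Tg/0 transgene, which the paper describes as germ-cell-specific and active in spermatogonia. Excision in Leydig cells was not measured here. *Arid1a* WT males lacked the transgene and were Arid1a fl/fl or fl/+. Testes of adult males were pooled for each purification, and fractions were combined according to their pachytene content under the light microscope. Excision was incomplete, so that the *Arid1a* cKO fractions still held some pachytene cells with ARID1A.

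Leydig cells lie in the interstitium between the seminiferous tubules and are the main source of testicular androgen. Luteinizing hormone acts on its receptor to raise cyclic AMP, cholesterol is moved into the mitochondrion, and a series of cytochromes P450 and hydroxysteroid dehydrogenases converts it to testosterone. The nuclear receptor steroidogenic factor 1 (NR5A1) binds the promoters of many of these genes, and INSL3, a relaxin-like peptide, is the other hormone for which the cells are known.

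The 250 bases before the start of transcription were available in RefSeq (GRCm38.p6) for 6 of the 9 genes, in 7 entries. *Nr5a1*, *Star* and *Cyp17a1* had no entry. The windows of *Insl3*, the member with the most transcript, and of the neighbouring paralogues *Hsd3b1* and *Hsd3b6* are shown. The transcripts of these 3 genes differed strongly between genotypes, but so did those of *Cyp11a1* and *Hsd17b3*, whose windows are not printed. Capitals mark CAAGGTC and CAAGGCC, a core word that NR5A1 is known to recognise and its variant, searched on both strands. The *Insl3* window lies at chr8:71689002-71689251 on the plus strand, that of *Hsd3b1* at chr3:98859795-98860044 on the minus strand and that of *Hsd3b6* at chr3:98814444-98814693 on the minus strand.
Insl3: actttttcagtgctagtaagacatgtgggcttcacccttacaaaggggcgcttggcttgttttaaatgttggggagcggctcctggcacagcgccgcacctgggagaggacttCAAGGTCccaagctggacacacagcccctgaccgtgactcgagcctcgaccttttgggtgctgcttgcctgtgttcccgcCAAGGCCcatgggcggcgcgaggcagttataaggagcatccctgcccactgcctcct
Hsd3b1: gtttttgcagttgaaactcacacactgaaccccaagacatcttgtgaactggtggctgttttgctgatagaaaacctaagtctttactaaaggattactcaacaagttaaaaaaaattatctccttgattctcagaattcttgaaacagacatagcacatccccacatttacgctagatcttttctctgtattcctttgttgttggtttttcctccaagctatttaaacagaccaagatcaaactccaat
Hsd3b6: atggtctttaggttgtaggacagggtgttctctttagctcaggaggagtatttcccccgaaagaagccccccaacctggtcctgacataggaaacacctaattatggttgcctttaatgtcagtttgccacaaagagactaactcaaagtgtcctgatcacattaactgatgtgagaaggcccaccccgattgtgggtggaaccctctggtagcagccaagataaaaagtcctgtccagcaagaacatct

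The *Insl3* window held CAAGGTC, beginning 137 bases before the start, and CAAGGCC, beginning 57 bases before it. The other 6 entries of members, which included 2 starts of *Cyp11a1*, held neither word. Of all 32851 mouse promoters in the table, 8.28% held at least one of them. The longer words CAAGGTCA and CAAGGCCA, searched first, were in 0 of the 7 entries and in 3.28% of all promoters, and the shorter words were taken after that result was seen. A match describes the letters of these windows only. Between the *Hsd3b1* and *Hsd3b6* windows the best ungapped alignment matched 75 of 238 bases, or 31.5%.

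Transcripts of 8 of the 9 steroidogenesis genes were lower in *Arid1a* cKO than in *Arid1a* WT fractions, by log2 fold changes of -3.65 to -1.26, and *Lhcgr* did not pass the test. *Insl3* and *Cyp17a1* fell by 3.65 and 3.41 on the log2 scale, which left 7.94% and 9.43% of the *Arid1a* WT level. The enzyme genes *Cyp11a1*, *Hsd3b1*, *Hsd3b6* and *Hsd17b3* were left with 10.9 to 15.3%, *Star* with 23.7% and *Nr5a1* with 41.7%. By edgeR 0 of the 9 genes were higher, also at an unadjusted p of 0.05, and by DESeq2 0 were, since all 9 fold changes were negative. Calls were made with edgeR's quasi-likelihood test at a Benjamini-Hochberg adjusted p of 0.05 over all 17643 genes tested.

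These counts stand against a wide background, since 37.5% of all genes tested were called lower, 36.5% were called higher and 74.0% were called in either direction. The size of the members' differences was therefore set beside the same sizes in the whole table. Of the 9 members 7, and of all genes tested 2.95%, were called lower with a log2 fold change of -2 or less. Called lower with -3 or less were 3 members and 0.510%, and with -1 or less 8 members and 16.0%. The median log2 fold change was -2.90 over the members and -0.02 over all genes tested. Because the members were chosen with earlier results of these data known, these shares and medians describe the list and test nothing. All 9 passed the minimum of 10 counts, and they also reached it on their *Arid1a* cKO counts alone.

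Libraries held 15850961 to 22044507 estimated counts assigned to genes. *Arid1a* itself was at 113 ± 13.8 CPM (counts scaled to the library's size after TMM normalization, SD, n = 4) in *Arid1a* WT and 79.7 ± 2.89 in *Arid1a* cKO, without overlap. The libraries are labelled as biological replicates, but nothing says that they came from separate purifications, so p-values measure the spread between these samples only. Against a purification of pachytene spermatocytes, summed pachytene markers were at 9958 to 11539 CPM in *Arid1a* WT and 8216 to 8875 in *Arid1a* cKO, and the 9 Leydig genes summed to 71.1 to 75.9 and 12.8 to 13.2. In such bulk samples, fewer cells of a type and less RNA per cell cannot be told apart.

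*Lhcgr* encodes the receptor through which luteinizing hormone drives Leydig cells (chr17:88716384-88792059). It was at 2.08, 2.47, 3.91 and 1.73 CPM in *Arid1a* WT replicates 1 to 4 and at 1.29, 1.48, 2.06 and 1.99 in *Arid1a* cKO replicates 1 to 4. The groups overlapped, with *Arid1a* WT replicate 4 below 2 of the *Arid1a* cKO libraries and *Arid1a* WT replicate 3 above all others. The log2 fold change was -0.57 (SE 0.25, 95% interval -1.12 to -0.02, adjusted p = 0.0574 by edgeR). Only 24 to 78 counts per library lay behind these values. *Lhcgr* was past the threshold in several alternative settings, among them without *Arid1a* WT replicate 1 (log2 fold change -0.65, adjusted p = 0.0458), without *Arid1a* WT replicate 4 (-0.70, adjusted p = 0.0148) and without *Arid1a* cKO replicate 3 (-0.68, adjusted p = 0.0495), and it was at -0.29 without *Arid1a* WT replicate 3.

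*Nr5a1* (chr2:38692656-38714542), the transcription factor of steroidogenic cells that Sertoli cells also express, was at 8.31, 9.69, 11.0 and 9.74 CPM in *Arid1a* WT and at 4.04, 4.34, 3.83 and 3.98 in *Arid1a* cKO. Every *Arid1a* cKO library lay below every *Arid1a* WT library, as in 34.9% of all genes tested, while in 34.0% every *Arid1a* cKO library lay above. The means were 9.69 ± 1.11 and 4.05 ± 0.214 (SD, n = 4), and the log2 fold change was -1.26 (SE 0.11, 95% interval -1.49 to -1.03, adjusted p = 6.67e-08 by edgeR).

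*Star* (chr8:25808474-25815982) encodes the protein that delivers cholesterol to the inner mitochondrial membrane, the acutely regulated step of steroid synthesis. *Star* was at 9.15, 7.91, 8.68 and 7.42 CPM in *Arid1a* WT and at 2.15, 1.71, 1.91 and 2.06 in *Arid1a* cKO, with a wide gap between the groups. Its mean was 8.29 ± 0.776 against 1.96 ± 0.191 (SD, n = 4), and its log2 fold change was -2.08 (SE 0.12, 95% interval -2.34 to -1.81, adjusted p = 1.07e-09 by edgeR). *Cyp11a1* (chr9:57998024-58027031), whose enzyme cleaves the cholesterol side chain to make pregnenolone, was at 6.98, 7.77, 7.02 and 7.73 CPM and at 0.753, 1.26, 0.718 and 1.16. The *Arid1a* cKO values of *Cyp11a1* fell into 2 lower and 2 higher libraries, all below the *Arid1a* WT range. Its mean was 7.38 ± 0.436 against 0.971 ± 0.275 (SD, n = 4), a log2 fold change of -2.94 (SE 0.16, 95% interval -3.30 to -2.59, adjusted p = 5.87e-10 by edgeR).

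*Hsd3b1* (chr3:98842356-98859794) and *Hsd3b6* (chr3:98805504-98814443) encode the dehydrogenases that turn pregnenolone into progesterone and lie side by side in the *Hsd3b* cluster. *Hsd3b1* was at 5.89, 4.80, 4.92 and 5.91 CPM in *Arid1a* WT and at 1.02, 0.628, 0.574 and 0.643 in *Arid1a* cKO. *Arid1a* cKO replicate 1 stood above the other 3 of its group and still far below *Arid1a* WT. *Hsd3b1* had a log2 fold change of -2.90 (SE 0.19, 95% interval -3.30 to -2.49, adjusted p = 2.98e-09 by edgeR). *Hsd3b6* was at 2.42, 2.15, 2.56 and 2.68 CPM and at 0.215, 0.285, 0.191 and 0.386, the latter from only 4 to 6 counts per library. All 4 *Arid1a* cKO libraries of *Hsd3b6* lay below the *Arid1a* WT range. Its log2 fold change was -3.19 (SE 0.24, 95% interval -3.72 to -2.67, adjusted p = 1.98e-08 by edgeR).

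The members of the *Hsd3b* cluster share sequence, which limits how far reads can be told apart. Of the words of 31 bases in *Hsd3b6* transcripts, 29.1% were also in transcripts of another gene, 23.3% in *Hsd3b2* and 21.3% in *Hsd3b3*, and for *Hsd3b1* the share was 13.0%. *Hsd3b2*, another gene of the cluster, was higher in *Arid1a* cKO, with a log2 fold change of 0.66 (SE 0.18, adjusted p = 0.00443 by edgeR). Its *Arid1a* WT counts were 382, 660, 640 and 326, an uneven set, against 598 to 854 in *Arid1a* cKO. *Hsd3b3* was at 0 counts in all 8 libraries, *Hsd3b5* had 1 count in all and *Hsd3b4*, at 6 to 10 counts in *Arid1a* WT and 19 to 38 in *Arid1a* cKO, had a log2 fold change of 2.09 (SE 0.26, adjusted p = 3.86e-06). *Hsd3b7*, a bile acid enzyme gene outside the cluster, was not called, with a log2 fold change of -0.09 (SE 0.53) from 3 to 21 counts per library. The ratio of *Hsd3b1* to *Hsd3b6* in TPM, a level per transcript length, was 1.88 to 2.42 in *Arid1a* WT and 1.82 to 2.43 in *Arid1a* cKO, so the paralogues kept overlapping proportions while both were lower.

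*Cyp17a1* (chr19:46667165-46673000) encodes the hydroxylase and lyase that opens the way to androgens. It was at 18.3, 15.7, 17.7 and 19.8 CPM in *Arid1a* WT and at 1.51, 1.71, 1.87 and 1.61 in *Arid1a* cKO. Both groups were tight and the lowest *Arid1a* WT library was far above the highest *Arid1a* cKO library. The log2 fold change was -3.41 (SE 0.11, 95% interval -3.65 to -3.17, adjusted p = 1.43e-12 by edgeR), a 10.6-fold difference. *Hsd17b3* (chr13:64058274-64089262), the enzyme of the last step from androstenedione to testosterone, was at 2.52, 2.70, 2.11 and 2.14 CPM and at 0.431, 0.285, 0.478 and 0.193, with 3 to 10 counts per *Arid1a* cKO library. Its groups did not overlap either. *Hsd17b3* had a log2 fold change of -2.71 (SE 0.25, 95% interval -3.25 to -2.17, adjusted p = 1.78e-07 by edgeR).

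*Insl3* (chr8:71689252-71690577), the peptide hormone that guides descent of the fetal testis and marks mature Leydig cells, was at 15.4, 17.9, 18.1 and 16.1 CPM in *Arid1a* WT and at 1.40, 1.31, 1.44 and 1.16 in *Arid1a* cKO. No *Arid1a* cKO library came near the *Arid1a* WT range. The log2 fold change was -3.65 (SE 0.11, 95% interval -3.89 to -3.42, adjusted p = 5.54e-13 by edgeR), a 12.6-fold difference and the largest of the 9. *Insl3* lies within the 3' part of *Jak3* (chr8:71676383-71690577), a kinase gene of blood cells, and 63.1% of its words of 31 bases were also in *Jak3* transcripts. *Jak3* had a log2 fold change of -0.26 (SE 0.13, adjusted p = 0.0916 by edgeR) and was not called. How reads of the shared stretch were divided between the 2 genes was not tested.

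**Figure D1:**
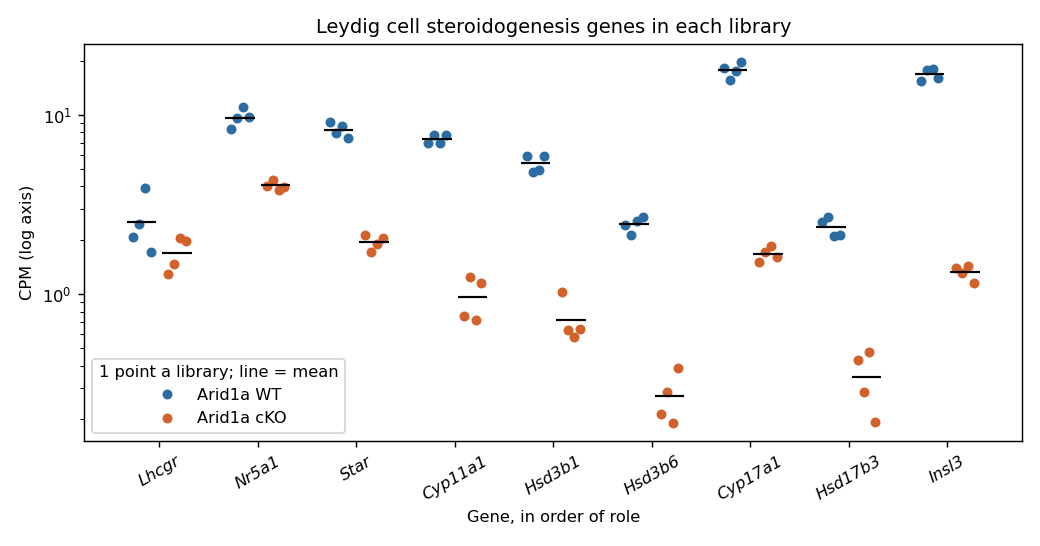
Counts scaled to library size (CPM, log axis) of the 9 steroidogenesis genes in each library, with 1 point a library and a line at the mean of the 4 *Arid1a* WT (blue) or 4 *Arid1a* cKO (orange) libraries. The groups overlap for *Lhcgr* and for no other member, and *Insl3* runs from 15.4 to 18.1 in *Arid1a* WT against 1.16 to 1.44 in *Arid1a* cKO.

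**Figure D2:**
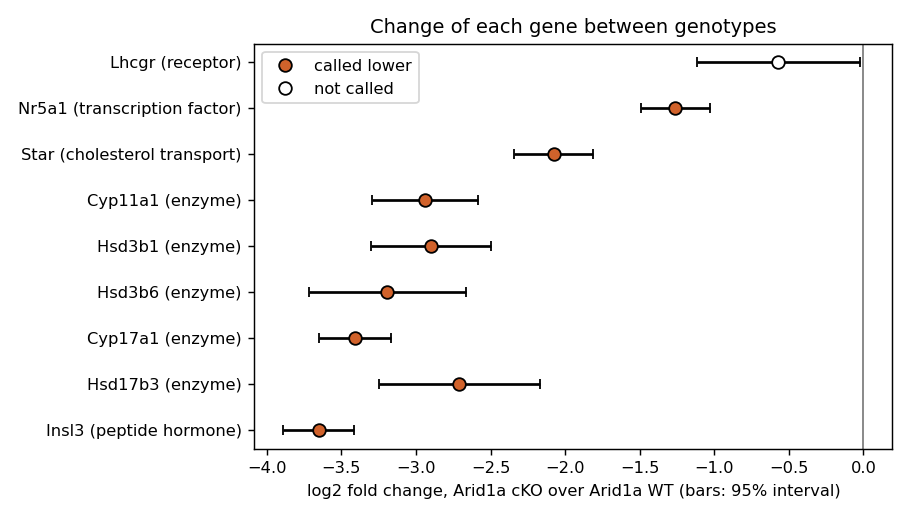
Log2 fold change of each member, *Arid1a* cKO over *Arid1a* WT, from edgeR, with bars for the 95% interval over 4 libraries a group; filled points were called lower. The receptor and the transcription factor (-0.57 and -1.26) lie nearest to 0 and the enzymes and *Insl3* lie farther out, to -3.65.

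The 95% intervals of *Lhcgr* and *Nr5a1* lay apart from those of *Star*, of the 5 enzyme genes and of *Insl3*. That of *Star* met the interval of *Hsd17b3* and of no other enzyme gene, and the intervals of the 5 enzyme genes overlapped one another. These intervals are given side by side and the differences between genes were not tested. In TPM, *Cyp17a1* was at 2.70 to 3.70 times *Nr5a1* in *Arid1a* WT and at 0.629 to 0.847 times in *Arid1a* cKO. *Insl3* was at 9.85 to 11.3 times *Nr5a1* in *Arid1a* WT and at 1.77 to 2.29 times in *Arid1a* cKO. Neither of these 2 ratios overlapped between genotypes. The ratio of *Star* to *Cyp11a1* was 0.676 to 0.83 in *Arid1a* WT and 0.911 to 3.38 in *Arid1a* cKO, where it spread widely.

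On the TPM scale, which allows levels of different genes to be compared, *Insl3* led in *Arid1a* WT at 53.1 ± 6.39 (SD, n = 4), followed by *Cyp17a1* at 15.6 ± 1.02. *Cyp11a1* (5.36), *Nr5a1* (5.02), *Hsd3b1* (4.70) and *Star* (4.12) came next, each overlapping its neighbour in the order, then *Hsd17b3* (3.49), *Hsd3b6* (2.23) and *Lhcgr* (0.589). In *Arid1a* cKO the order was *Insl3* (3.81), *Nr5a1* (1.90), *Cyp17a1* (1.40), *Star* (1.08), *Cyp11a1* (0.720), *Hsd3b1* (0.593), *Hsd17b3* (0.523), *Lhcgr* (0.355) and *Hsd3b6* (0.297), and from *Cyp17a1* down each gene overlapped the next. *Nr5a1* thus ranked 4 of 9 in *Arid1a* WT and 2 of 9 in *Arid1a* cKO. Summed over the 9 genes, the level was 86.3, 97.9, 101 and 91.1 TPM in *Arid1a* WT and 11.3, 11.6, 10.4 and 9.40 in *Arid1a* cKO. The groups were apart by a ratio of 8.82 between their means, and in CPM the ratio was 5.60. *Insl3* made up 56.4% of that sum in *Arid1a* WT and 35.7% in *Arid1a* cKO, and *Nr5a1* 5.33% and 17.8%. Without *Insl3* the ratio was 5.98.

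Other genes of the pathway were taken from 7 lists, of which 55 of 58 genes were tested. Of these 55, 28 were lower, 12 were higher and 15 were not called, with a median log2 fold change of -0.43. Over all genes tested 74.0% were called, 37.5% lower and 36.5% higher. The share of these 55 called in either direction was close to that background. By direction, the share lower was larger and the share higher was smaller than over all genes tested, a difference that was not tested. Without TMM scaling 9 were higher, and with DESeq2 24 were lower. Apart from the hormone receptors, with 1 lower and 0 higher, each list held genes called in both directions. Of the 9 members 8 were lower and 0 higher. Only the redox partners and the other Leydig cell markers had a median below -1.

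The redox partners feed electrons to the steroidogenic P450 enzymes, and 4 of 5 were lower with 1 higher, against 37.5% and 36.5% of all genes tested. *Cyb5a*, cytochrome b5, which favours the lyase reaction of CYP17A1, was at 28.4 ± 2.32 CPM in *Arid1a* WT and 7.68 ± 0.458 in *Arid1a* cKO (SD, n = 4), a log2 fold change of -1.89 (SE 0.08, adjusted p = 2.55e-11 by edgeR). *Fdxr*, the ferredoxin reductase that serves mitochondrial P450 enzymes, fell by 1.50 on the log2 scale. *Cyb5b*, the mitochondrial outer membrane cytochrome b5, likewise had a log2 fold change of -1.50. *Por*, the reductase of microsomal P450 enzymes, was higher by 0.84 (SE 0.08, adjusted p = 3.22e-07 by edgeR). These genes are used by many cell types, and *Cyb5b* was at 75.6 CPM in *Arid1a* WT.

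Of 9 genes of cholesterol supply, 5 were lower, 3 higher and 1 was not called, against 37.5% lower and 36.5% higher over all genes tested. *Soat1*, which esterifies cholesterol for storage, was at 73.9 ± 6.31 CPM in *Arid1a* WT and 26.5 ± 1.02 in *Arid1a* cKO, a log2 fold change of -1.48 (SE 0.07, adjusted p = 4.52e-11 by edgeR). *Lipe*, the hormone-sensitive lipase that frees it again, rose from 75.7 ± 3.49 to 172 ± 8.67 CPM, a log2 fold change of 1.18 (SE 0.05, adjusted p = 4.69e-11). *Stard4*, a soluble sterol carrier related to *Star*, fell by 1.04 and *Npc2*, a lysosomal sterol carrier, by 0.41 on the log2 scale. Among 5 genes of luteinizing hormone and cyclic AMP signalling, 3 were lower and 2 higher: the log2 fold change was -0.80 for *Creb1*, a cyclic AMP-responsive transcription factor, -0.52 for the phosphodiesterase gene *Pde8a*, -0.19 for *Gnas*, the stimulatory G protein, and 0.64 for *Prkar1a*, the regulatory subunit of protein kinase A.

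Transcription factors that act with NR5A1 numbered 7, of which 2 were lower, 2 higher and 3 not called, shares no larger than the 37.5% and 36.5% of all genes tested. *Gata4*, a factor of Leydig and Sertoli cells, was at 11.3 ± 0.660 CPM in *Arid1a* WT and 3.76 ± 0.596 in *Arid1a* cKO, a log2 fold change of -1.59 (SE 0.11, adjusted p = 6.78e-09 by edgeR), and *Nr0b1*, a repressor of NR5A1, had one of -1.25. *Gata6*, the related GATA factor, was higher by 1.27 and *Nr4a1*, an immediate-early nuclear receptor, by 1.80 (SE 0.06, adjusted p = 1.23e-12). Among 12 tested of 15 other steroid enzymes, 4 were lower, 3 higher and 5 not called. *Srd5a1*, a steroid reductase that makes dihydrotestosterone, fell by 0.95 on the log2 scale. *Srd5a3*, a family member with a role in dolichol synthesis, fell by 0.89, and *Hsd17b7*, an enzyme of cholesterol synthesis, by 0.43. Of 4 hormone receptors, *Rxfp2*, the receptor of INSL3, was lower, with a log2 fold change of -0.59 (SE 0.10, adjusted p = 0.000134 by edgeR). The estrogen receptors *Esr1* and *Esr2* were not called, with log2 fold changes of 0.18 and 0.08.

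Other Leydig cell markers, 13 genes, were lower in 9 cases and higher in 1 (37.5% and 36.5% of all genes tested), with a median log2 fold change of -1.76 and a summed level of 80.5 to 93.1 CPM in *Arid1a* WT against 31.1 to 34.6 in *Arid1a* cKO. *Bhmt*, a methyltransferase, had a log2 fold change of -2.40 (SE 0.14, adjusted p = 1.14e-09 by edgeR). *Ptgds*, a prostaglandin D synthase, and *Fabp3*, a fatty acid carrier, were at -2.09 and -2.05. Most of the summed level came from *Ptgds*, at means of 24.7 and 5.79 CPM, and *Aldh1a1*, at 40.2 and 14.9 CPM (log2 fold change -1.44). *Igf1* went the other way at 2.0 (SE 0.15, adjusted p = 2.21e-08). *Hao2*, which lies beside *Hsd3b1*, had 5, 5, 3 and 3 counts in *Arid1a* WT and 0 in all 4 *Arid1a* cKO libraries. Taking 3 counts over the *Arid1a* cKO group as the most that 0 allows, it was at least 4.61-fold lower, and the median of the list was -1.76 with *Hao2* at that bound as well.

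**Figure D3:**
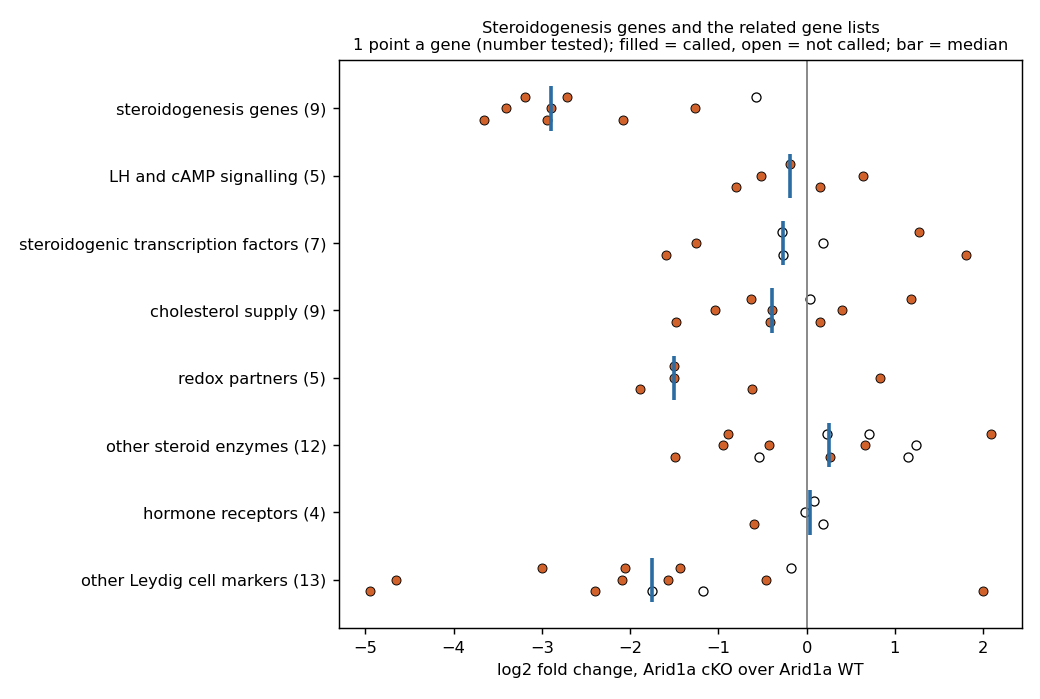
Log2 fold change, *Arid1a* cKO over *Arid1a* WT, of every tested gene in the 9 steroidogenesis genes and the 7 related lists (number tested in brackets), with 1 point a gene, filled where called by edgeR, and a bar at the list's median. The median is -2.90 for the members, -1.76 for other Leydig cell markers and -1.50 for redox partners, and between -0.40 and 0.25 for the rest.

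Markers of other cell types of the testis moved with the genotype as well, and their counts are to be read against the 37.5% of all genes tested that were lower and the 36.5% that were higher. All 14 Sertoli cell markers were lower, with a median log2 fold change of -1.42 and a summed level of 699 to 774 CPM in *Arid1a* WT against 236 to 247 in *Arid1a* cKO. Among them *Inhbb*, an inhibin subunit, was at -2.0, the secreted chaperone gene *Clu* at -1.99, *Wt1*, a transcription factor, at -1.54 and *Cldn11*, a tight junction gene, at -1.47. The Sertoli median was closer to 0 than that of the 9 members, and 6 of the members (*Cyp11a1*, *Hsd3b1*, *Hsd3b6*, *Cyp17a1*, *Hsd17b3* and *Insl3*) lay beyond every Sertoli marker. Of 5 red blood cell markers, 3 were among the genes with expression values and 2 were tested. Both were lower, by 2.12 (*Hba-a1*) and 1.23 (*Alas2*) on the log2 scale. Their summed levels were 10.6 to 11.1 CPM in *Arid1a* WT and 3.68 to 5.08 in *Arid1a* cKO. The sum was mostly *Alas2*, at 9.50 to 10.5 CPM in *Arid1a* WT and 3.40 to 4.88 in *Arid1a* cKO. *Hba-a1* was at 0.602 to 1.19 CPM in *Arid1a* WT and 0.0538 to 0.287 in *Arid1a* cKO. How far this sum follows red blood cells was not tested. *Hbb-bt*, not tested, had 1 or 2 counts per *Arid1a* WT library and 0 in *Arid1a* cKO.

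Markers of other interstitial cells were mostly higher in *Arid1a* cKO, as were 36.5% of all genes tested, with 37.5% lower. Of 10 macrophage markers, 8 were higher and 1 was lower, with a median of 1.55, although the summed level was 28.9 to 32.3 CPM in *Arid1a* WT and 21.0 to 24.4 in *Arid1a* cKO. The lower one, *Mrc1*, had a log2 fold change of -1.95 and alone was at 24.5 CPM in *Arid1a* WT. All 5 interstitial fibroblast markers were higher, with summed levels of 6.13 to 8.33 and 18.6 to 22.0 CPM. Myoid markers were higher in 5 of 6, with a median log2 fold change of 0.61, and their sum (51.0 to 59.0 and 192 to 208 CPM) was mostly *Actg2*, an actin gene of smooth muscle, at 41.5 and 180 CPM. Endothelial markers were higher in 4 and lower in 1 of 6 (16.4 to 18.5 and 25.3 to 26.7 CPM).

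Germ cell lists differed too, beside 36.5% of all genes tested that were higher and 37.5% that were lower: all 10 spermatid markers were higher (1755 to 1948 CPM in *Arid1a* WT, 7618 to 7908 in *Arid1a* cKO), 4 of 10 pachytene markers were higher and 6 lower, and 7 of 8 spermatogonia markers were higher. The eighth, *Id4*, was lower, from 90.3 to 14.4 CPM, and the sum of the 8 was 184 to 190 and 166 to 175 CPM. Apart from *Hbb-bt*, no marker in the lists of other cell types was at 0 throughout *Arid1a* cKO, while *Hao2* of the other Leydig cell markers was. The part of these marker differences in the lower levels of the 8 steroidogenesis genes called lower was not tested.

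**Figure D4:**
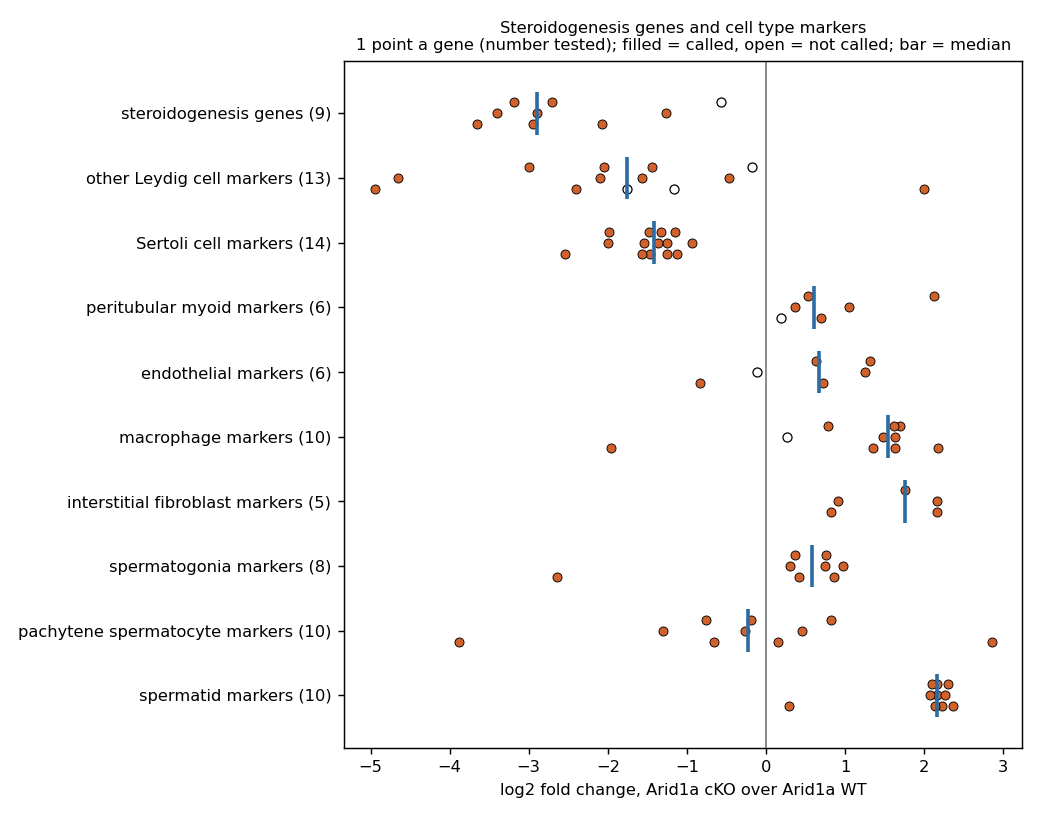
Log2 fold change, *Arid1a* cKO over *Arid1a* WT, of the 9 steroidogenesis genes and of marker lists of testis cell types (number tested in brackets), with 1 point a gene, filled where called by edgeR, and a bar at the median. The medians of other Leydig and of Sertoli markers are -1.76 and -1.42, and those of fibroblast, macrophage and spermatid markers are 1.76, 1.55 and 2.16, with *Igf1* (2.0) and *Mrc1* (-1.95) on the other side of 0 from the medians of their lists.

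The gene profiles most like that of *Insl3* over the 8 libraries, by the root mean square difference of mean-centred log2 CPM among 12996 genes, were those of *Sap30* (0.130), *Mgll* (0.154), *1700006A11Rik* (0.165), *Lypd10* (0.168) and *Piwil1* (0.188), the last a PIWI gene of pachytene germ cells. *Cyp17a1* ranked 10 in likeness (0.203), while *Cyp11a1* and *Hsd3b1* ranked 86 and 87. Much farther off were *Star* at 337, *Nr5a1* at 1453 and *Lhcgr* at 4550. The genotype difference sets most of this measure, and the log2 fold changes of the 5 nearest genes lay between -3.88 and -3.37. They were far above *Insl3* in level, with average log2 CPM of 5.08 to 9.74.

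The genes on either side of the members, or overlapping them, were 17 in number outside the list, and 9 were lower, 5 higher and 3 not called, with a median log2 fold change of -0.27, beside 37.5% lower and 36.5% higher over all genes tested. *Fshr*, the Sertoli cell receptor next to *Lhcgr*, was at -1.57 and *Gtf2a1l*, on its other side, at 0.62. *Cyp17a1* lay between *Wbp1l* (-1.62) and *Borcs7* (-2.45), and *Cyp11a1* between *Sema7a* (-1.45) and *Ccdc33* (2.12). *Nr5a1* lay between *Psmb7*, which was not called (-0.04), and the nuclear receptor gene *Nr6a1*, which was higher (1.61). *Star* lay between *Lsm1* (-0.49) and *Ash2l* (-0.27), both called lower by less than *Star* itself.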

How the data were processed

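RNA-seq of 4 *Arid1a* WT and 4 *Arid1a* cKO libraries was analysed, with genotype and replicate number taken from the sample labels. The authors quantified transcripts with Salmon and summed them with tximport to Entrez genes of mm10, and versions are not given in the sources used here. They deposited estimated counts per gene, not scaled for depth or length, and TPM. In TPM the listed genes made up 78.1 to 81.1% of the nominal total in *Arid1a* WT libraries and 88.1 to 88.6% in *Arid1a* cKO libraries. Levels in TPM were compared between genotypes without rescaling for this difference. Estimated counts were rounded to whole numbers. A further deposited table of the authors' own fold changes and p-values was not used, and no column was without a sample. Symbols came from RefSeq records, which matched 21036 of 21058 identifiers. Because Salmon shares reads among transcripts, genes with common sequence are less certain, and low counts limit the precision of *Hsd3b6* and *Hsd17b3*.

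The test was edgeR 4.0.16 on every gene with a sum of at least 10 counts (quasi-likelihood, TMM, genotype only, Benjamini-Hochberg adjustment over all genes, R 4.3.3). The fit was first tested on simulated data. CPM here are the rounded counts scaled by library size after TMM. Shared words of 31 bases were counted in GENCODE transcripts. The members and lists were chosen with earlier results of these data known. The text names every member, the other *Hsd3b* genes, *Jak3*, neighbouring genes, the 5 profiles nearest to the most abundant member, and at most 4 genes a list that were called without overlap at an average log2 CPM of 1 or more, by size. Genes outside that rule (*Hba-a1*, *Hbb-bt*, *Esr1*, *Esr2*, *Amh*, *Aldh1a1*) were named after their values were seen. No pair of libraries of a genotype agreed within sampling noise (chi-square per degree of freedom 1.71 to 18.0), so none was treated as a library deposited more than once. This does not show that they came from separate purifications. Alternatives were DESeq2 1.42.0, other scalings and filters, transcript length offsets, a replicate block, a stricter adjusted p of 0.01, limma 3.58.1 on log2 TPM with a pseudocount of 1 or 0.1, and leaving out each library.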

Additional observations from a re-analysis of the deposited data

Results flagged for a closer look

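*Hsd3b1* in *Arid1a* cKO replicate 1 stood apart from its group, at 1.02 CPM against 0.574 to 0.643 in the other 3 libraries. Its gap to the nearest of them was 0.847 of the range of the group. Over 20 groups of 4 libraries examined (9 genes and their summed TPM in 2 genotypes) this was the 1 that stood apart, and chance gives about 1 in 20. Without that library the log2 fold change of *Hsd3b1* was -3.12, by edgeR.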

How the results depend on the processing

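All 178 values of the 9 members under the alternatives were negative and 171 kept their side of the threshold. The exceptions were 7 values of *Lhcgr*, which was called without TMM scaling (log2 fold change -0.68), with transcript length offsets (-0.62), with limma on log2(TPM + 1) (-0.22), with the replicate block (-0.56) and in 3 analyses that left out a library. Limma on log2(TPM + 1), where the pseudocount is large beside these levels, gave smaller differences for *Hsd3b6* (-1.32), *Star* (-1.32), *Hsd17b3* (-1.57), *Hsd3b1* (-1.85) and *Cyp11a1* (-1.90). Leaving out 1 library gave -0.70 to -0.29 for *Lhcgr*, with a highest adjusted p of 0.220 over its alternatives, and for the summed level -3.19 to -3.08. The log2 ratio of summed levels was -3.14 in TPM, -2.48 in CPM and -2.58 without *Insl3*, and *Hsd3b6* and *Hsd17b3* gave no value when every library needed 10 counts. Without TMM the median of all genes was -0.12 against -0.02. Same-numbered libraries did not deviate together (r of -0.03 to 0.04, with 2 of 4 correlating best with their own number), and a replicate block gave 9 members lower, 6671 genes lower and 6429 higher, against 6613 and 6435 without it; the block brought *Lhcgr* past the threshold (adjusted p = 0.0265). Depth limits *Hsd3b6* and *Hsd17b3*, with 3 to 10 counts per *Arid1a* cKO library. The SE was 0.24 for *Hsd3b6*, 0.25 for *Hsd17b3* and 0.25 for *Lhcgr*.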
